A study of Mus musculus with 4 samples.

Results

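Binding of KDM5C was examined at the promoters of 10 genes that act in the entry into meiosis and in meiotic recombination: Stra8, Prdm9, Spo11, Dmc1, Mei1, Mei4, Msh4, Msh5, Psmc3ip and Hfm1. The genes were taken by name, and all 10 were found among the 22367 protein-coding genes annotated on the mouse mm9 assembly. A promoter was counted as bound when the midpoint of a deposited peak lay within 1 kb of any annotated transcription start site (TSS) of the gene. By this count, 7 of the 10 promoters were bound in cells with an intact Kdm5c gene, and 0 of the 10 in cells lacking it. Stra8, Prdm9 and Msh5 were the genes unbound in both. Over all protein-coding genes, the bound share was 24.0% with Kdm5c intact and 0.0939% without it. The count of 0 is therefore not particular to these genes.

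KDM5C, also known as SMCX, is an X-linked demethylase of lysine 4 on histone H3, and its occupancy was measured with chromatin immunoprecipitation followed by sequencing (ChIP-Seq). The cells were male mouse epiblast-like cells (EpiLCs) at day 2 of differentiation, derived from embryonic stem cells. The labels give their strain as C57BL/6J, whereas the study's methods name another background for its mutant mice and a mixed one for the floxed Kdm5c allele. The labels and the study's methods differ on whether those 2 days led up to the EpiLC stage or followed it. All samples carry a deletion that truncates Tsix, the antisense repressor of Xist, on their only X chromosome. Kdm5c was intact in one genotype (XΔTsixY, here WT), and in the other (XΔTsix;ΔKdm5cY, here KO) it lacked the exons of the demethylase domain, an allele that leaves very little mutant protein according to the study. Each genotype had 1 immunoprecipitated and 1 input sample in the labels, 4 samples in all, and 1 deposited peak list. The peak names mark the WT list as made from replicates and the KO list from a single one. The sources differ on whether replicates were technical or separate cultures, and on whether the KO immunoprecipitation had 1 replicate or 2. Values therefore have no replicate error, no test between genotypes was made, and the lists do not hold the depth behind them. The WT list held 6916 peaks on assembled chromosomes and the KO list 44. Peak lists carry no expression values, so neither the loss of Kdm5c nor markers of the cell type could be checked.

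Meiosis is the pair of divisions by which germ cells reduce their chromosome number. Retinoic acid and other signals induce Stra8, which with its partner protein switches on meiotic genes. Recombination then begins with programmed DNA breaks, continues with invasion of the homologous chromosome by the broken ends, and is completed when some of the joined intermediates mature into crossovers. The genes of this programme are silent in most somatic and embryonic cells, and many of them have promoters rich in CpG dinucleotides that become DNA-methylated around implantation. EpiLCs model the epiblast near that stage.

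The sequences beneath the peaks and at the unbound promoters illustrate CpG content. They are not the windows of the CpG contrast below, which took 500 bp on either side of a TSS. Capitals mark each CpG, and all other bases are in lower case. Each sequence is read 5′ to 3′ on the strand of its gene from the mm9 reference, with no annotated leader sequence included. For Msh4, Spo11 and Psmc3ip, bound promoters, the bases around the WT peak summit are shown, up to 200. They lay at chr3:153568760-153568948 (minus strand), chr2:172805429-172805628 (plus strand) and chr11:100956537-100956690 (minus strand).
Msh4: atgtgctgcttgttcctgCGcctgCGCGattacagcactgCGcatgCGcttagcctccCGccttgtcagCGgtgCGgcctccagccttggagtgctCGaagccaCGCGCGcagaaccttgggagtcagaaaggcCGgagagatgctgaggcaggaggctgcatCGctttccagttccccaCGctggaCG
Spo11: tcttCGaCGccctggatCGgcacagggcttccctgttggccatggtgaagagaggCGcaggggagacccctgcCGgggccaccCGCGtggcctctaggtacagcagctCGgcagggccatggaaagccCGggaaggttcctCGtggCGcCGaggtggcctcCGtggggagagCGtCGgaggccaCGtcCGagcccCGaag
Psmc3ip: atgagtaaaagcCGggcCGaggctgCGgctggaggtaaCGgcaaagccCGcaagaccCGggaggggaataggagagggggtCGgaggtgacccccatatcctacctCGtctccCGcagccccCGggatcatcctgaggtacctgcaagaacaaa
For the unbound genes, the 200 bases just before the most upstream annotated TSS are shown. They lay at chr6:34869963-34870162 (Stra8, plus strand), chr17:15701319-15701518 (Prdm9, minus strand) and chr17:35183691-35183890 (Msh5, minus strand).
Stra8: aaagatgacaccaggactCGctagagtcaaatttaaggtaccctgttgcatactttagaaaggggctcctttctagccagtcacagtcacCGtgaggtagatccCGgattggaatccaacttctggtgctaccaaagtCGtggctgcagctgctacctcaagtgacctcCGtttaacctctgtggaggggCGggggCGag
Prdm9: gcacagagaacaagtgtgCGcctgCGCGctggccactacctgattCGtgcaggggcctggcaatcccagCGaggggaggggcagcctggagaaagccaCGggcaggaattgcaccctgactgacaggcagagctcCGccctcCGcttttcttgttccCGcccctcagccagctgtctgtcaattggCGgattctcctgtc
Msh5: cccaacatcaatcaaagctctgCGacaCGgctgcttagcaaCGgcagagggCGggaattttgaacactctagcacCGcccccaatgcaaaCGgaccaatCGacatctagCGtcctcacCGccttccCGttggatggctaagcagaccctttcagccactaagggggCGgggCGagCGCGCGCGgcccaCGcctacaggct
The Msh4 sequence held 16 CpGs in 189 bases, the Spo11 sequence 18 in 200, and the Psmc3ip sequence 10 in 154. Before Stra8 there were 7 CpGs and before Prdm9 10, whereas the 200 bases before Msh5 held 17. These counts are not like for like, since the bound windows lie at summits and the unbound ones before the TSS. In the 200 bases before the most upstream TSS, Msh4 held 4 CpGs, Spo11 6 and Psmc3ip 15. The most upstream TSS of Spo11 lies away from its peak. Over all 10 genes, the median CpG ratio in that window was 0.421 at bound and 0.509 at unbound members.

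Stra8, the regulator of meiotic entry, had no WT peak within 1 kb of any of its 3 annotated TSSs (gene at chr6:34870163-34889342, plus strand). The nearest WT peak midpoint lay 139518 bp away. The partner that acts with STRA8 is MEIOSIN, annotated in mm9 as Gm4969, and its promoter carried the WT peak of highest score in the whole list (2460, fold enrichment over input 19.5). The score of a peak is 10 times the −log10 of its q-value, so it grows with confidence as well as with enrichment. Gm4969 was also the only gene of the lists described here whose promoter had a KO peak. The WT peak at Gm4969 therefore cannot be assigned to KDM5C from these lists alone.

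Among the 4 genes that place or make the initiating breaks, Spo11, Mei1 and Mei4 were bound and Prdm9 was not. Spo11 encodes the enzyme that cuts DNA. Its peak spanned chr2:172805150-172805766, scored 492 and was enriched 9.24-fold over input. The summit lay 179 bp downstream of the nearest Spo11 TSS, in an intron. Spo11 also has an annotated TSS of a noncoding transcript 2328 bp upstream of the summit, which the peak did not reach.

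Mei1 and Mei4 are needed for break formation by SPO11. The peak at Mei1 (chr15:81900235-81900896) scored 458 at 7.62-fold enrichment, and its summit lay 96 bp downstream of the only annotated TSS, in annotated coding sequence. At Mei4 (chr9:81757271-81757744) the peak scored 43 at 3.03-fold enrichment. Both genes of this pair were thus bound, but the Mei4 peak was the weakest of the 7 and the Mei1 peak ranked 384 of 6916 WT peaks. The Mei4 summit lay 201 bp downstream of the nearest TSS, in an untranslated stretch of exon. Mei4 was the only bound member whose peak midpoint also lay within 1 kb of a TSS of another gene, the noncoding Gm16875 on the opposite strand, so that this peak cannot be assigned to Mei4 alone.

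Prdm9 encodes the histone methyltransferase that marks the sites of breaks by trimethylating lysine 4 of histone H3, the residue that KDM5C demethylates. None of its 7 annotated TSSs (gene at chr17:15680043-15701318, minus strand) had a peak. The nearest WT midpoint was 28274 bp away.

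Both genes of strand exchange were bound. DMC1 is the meiotic recombinase, which coats broken ends, and PSMC3IP (also called HOP2) forms with MND1 a complex that stimulates it. The Dmc1 peak (chr15:79435107-79435541) scored 84 at 3.05-fold enrichment, and its summit lay 218 bp downstream of the TSS, in an intron. The Psmc3ip peak (chr11:100956097-100957019) scored 101 at 3.69-fold enrichment, and its summit lay 53 bp downstream, within an exon of a noncoding transcript that is intronic in the coding one. By score these peaks lay near the middle of the WT list: they stood above 50.8% and 58.5% of WT peaks. By fold enrichment they ranked lower, at 5180 (Dmc1) and 3504 (Psmc3ip) of 6916.

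Of the 3 crossover genes, Msh4 and Hfm1 were bound and Msh5 was not, although MSH4 and MSH5 work together as a complex that stabilises crossover intermediates. The Msh4 peak (chr3:153568473-153569231) had the highest score of the members, 1034, which ranked 55 in the WT list, and was enriched 9.33-fold. Its summit lay 242 bp downstream of the TSS, in coding sequence. Hfm1, a DNA helicase of crossover formation, had a peak at chr5:107354675-107355571 that scored 98 at 3.62-fold enrichment. It was the only bound member whose summit lay upstream of the nearest TSS, by 58 bp, and that TSS is not the most upstream of the gene. Msh5 (chr17:35165550-35183690, minus strand) had no peak at any of its 11 annotated TSSs, and the nearest WT midpoint was 28949 bp away.

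**Figure D1:**
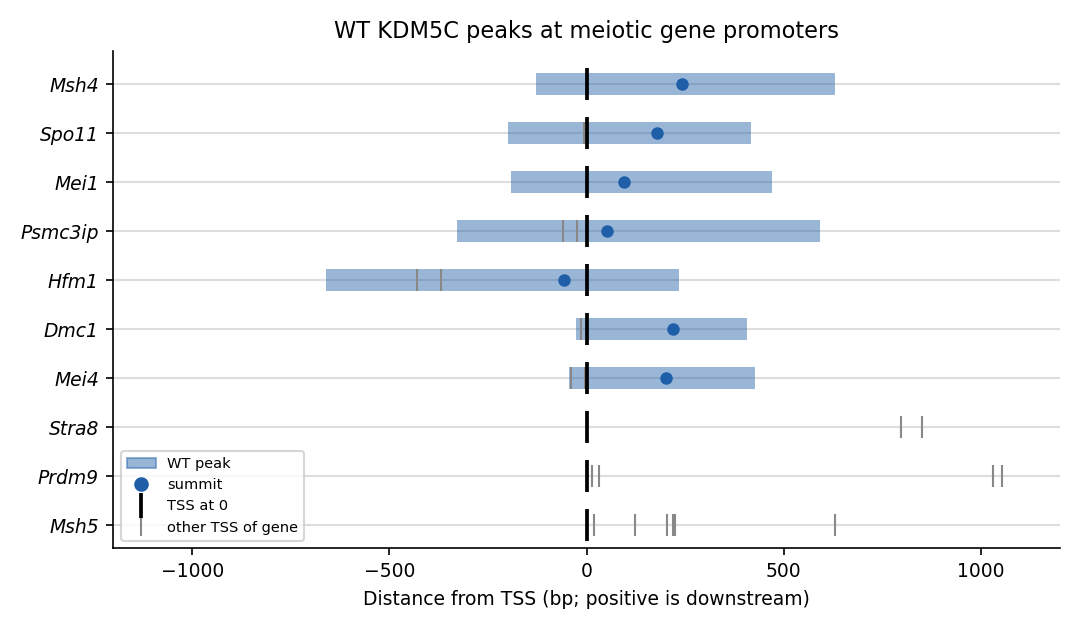
WT peaks (blue bars) and their summits (dots) for the 10 genes, in order of peak score, by distance in bp from the TSS nearest the summit or, for unbound genes, from the most upstream TSS; positive is downstream, black ticks mark that TSS and grey ticks other TSSs of the gene. The 7 bars all cover a TSS, 6 of the 7 summits lie downstream of it, and Stra8, Prdm9 and Msh5 have no bar.

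The split between bound and unbound members did not turn on the 1 kb limit. Midpoints of the bound members lay 108 to 250 bp from the nearest TSS of the gene, whereas those nearest to the unbound members lay 28274 bp away or farther. Each bound member had exactly 1 peak, which overlapped 0 KO peaks. The nearest KO midpoint to any of the 10 genes was 1184554 bp away, for Msh5. Because calling uses a threshold, KO signal below it at these promoters cannot be told from none.

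Set against the genome, WT peaks lay within 1 kb of a TSS at 24.0% of protein-coding genes (5358 of 22367, exact 95% interval 23.4 to 24.5%), beside 7 of the 10 members. KO peaks did so at 0.0939% of them, beside 0 members, a share so low that the count of 0 among 10 genes says nothing about them in particular. Peaks with a score at or above the WT median of 82 were found at 13.0% of protein-coding genes and at 6 members, all the bound ones except Mei4. Peaks at or above the 90th percentile of WT scores, 320, were found at 2.79% and at 3 members, namely Msh4, Spo11 and Mei1. The members have a median of 3.5 annotated TSSs, against 2 for all protein-coding genes, and more TSSs give more room for a match. With only the most upstream TSS of each gene, 6 members and 22.0% of protein-coding genes were bound, Spo11 being the member lost.

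In strength, the member peaks fell into a high set and a lower one. Msh4, Spo11 and Mei1 had scores from 458 to 1034 and fold enrichments from 7.62 to 9.33. Psmc3ip, Hfm1, Dmc1 and Mei4 had scores from 43 to 101 and fold enrichments from 3.03 to 3.69. No member lay between 101 and 458. The median of the 7 scores was 101, beside a median of 90 (quartiles 53 and 177) over all bound protein-coding genes, and 5 of the 7 lay above that median. Median fold enrichment was 3.69 at the members and 3.77 (quartiles 3.07 and 4.98) at all bound genes. The median member was therefore close to an ordinary bound promoter, and the top 3 were well above its upper quartile. Mei4 lay below the lower quartile of scores.

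The peaks were also alike in place. The median summit of the members lay 179 bp downstream of the nearest TSS, and 6 of the 7 were downstream. Over all bound protein-coding genes the median was 55 bp downstream (quartiles −113 and 193 bp), with 60.4% downstream. Widths ranged from 435 bp at Dmc1 to 923 bp at Psmc3ip, with a median of 662 bp beside 548 bp over all bound genes.

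To contrast bound and unbound promoters by CpG content, the ratio of observed to expected CpG was taken over 500 bp on either side of the most upstream TSS, a window chosen without use of the peaks. Over all protein-coding genes, CpG content went with binding. CpG-rich promoters, with a ratio of at least 0.6 and at least 50% GC, were bound in 44.1% of cases (4353 of 9879), and the others in 8.05% (1005 of 12488). The median ratio was 0.770 at bound and 0.392 at unbound protein-coding genes. In bins of 0.1 of the ratio the bound share went from 1.22% at the lowest to 58.8% at the highest.

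Within the 10 genes, CpG content did not separate bound from unbound promoters. The bound members had CpG ratios of 0.229 (Spo11), 0.578 (Mei4), 0.641 (Msh4), 0.648 (Dmc1), 0.650 (Mei1), 0.690 (Psmc3ip) and 0.905 (Hfm1), with a median of 0.648. The unbound members had ratios of 0.256 (Stra8), 0.651 (Prdm9) and 0.705 (Msh5), with a median of 0.651. The ranges overlapped from 0.256 to 0.705, and the medians differed by −0.0034 (bound minus unbound). The sign of this difference turned with a narrower window of 250 bp on either side (0.0346) and with the median over all TSSs of a gene (0.171). CpG-rich sequence was found at 5 of the 7 bound and 2 of the 3 unbound members. No test was made, since 10 chosen genes are not replicates. Where the ratio lay between 0.6 and 0.7, 4 of 5 members were bound (all but Prdm9), beside 34.6% of protein-coding promoters in that bin.

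**Figure D2:**
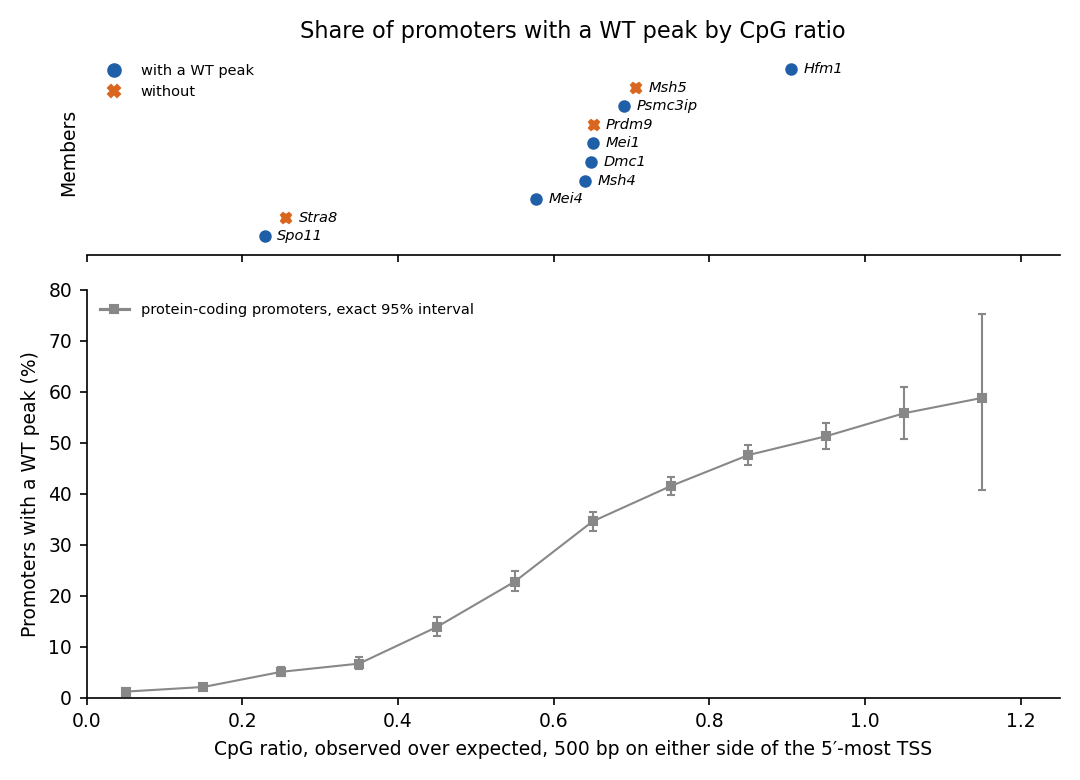
Upper panel: CpG ratio (observed over expected, 500 bp on either side of the most upstream TSS) of the 10 genes, with circles for those with a WT peak and crosses for those without, spread vertically for legibility. Lower panel: share of protein-coding promoters with a WT peak (%) in bins of 0.1 of the same ratio, with exact 95% intervals, which goes from 1.22% to 58.8%, whereas the crosses of Stra8, Prdm9 and Msh5 sit among the circles.

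The low ratio of Spo11 belongs to its most upstream TSS, which lies away from the peak. At the TSS nearest the summit the ratio was 0.633 with 55.7% GC. Taking for every gene the TSS with the highest ratio, again without use of the peaks, the bound members ranged from 0.578 (Mei4) to 0.905 (Hfm1) and the unbound ones were at 0.534 (Stra8), 0.670 (Prdm9) and 0.744 (Msh5). Stra8 was then the lowest of the 10, and Prdm9 and Msh5 lay within the bound range, above Mei4, Spo11, Msh4, Dmc1 and Mei1. In numbers, the 1 kb around this TSS held 37 CpGs at Stra8, 54 at Prdm9 and 75 at Msh5, and from 43 at Mei4 to 73 at Hfm1 among bound members. By this count Msh5 lay above every bound member, and Prdm9 above Mei4, Msh4, Spo11 and Mei1. The place of Msh5 above Hfm1 depended on the TSS taken. At the TSS nearest its summit Hfm1 held 79 CpGs, and at the most upstream TSS Hfm1 held 73 and Msh5 63.

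**Figure D3:**
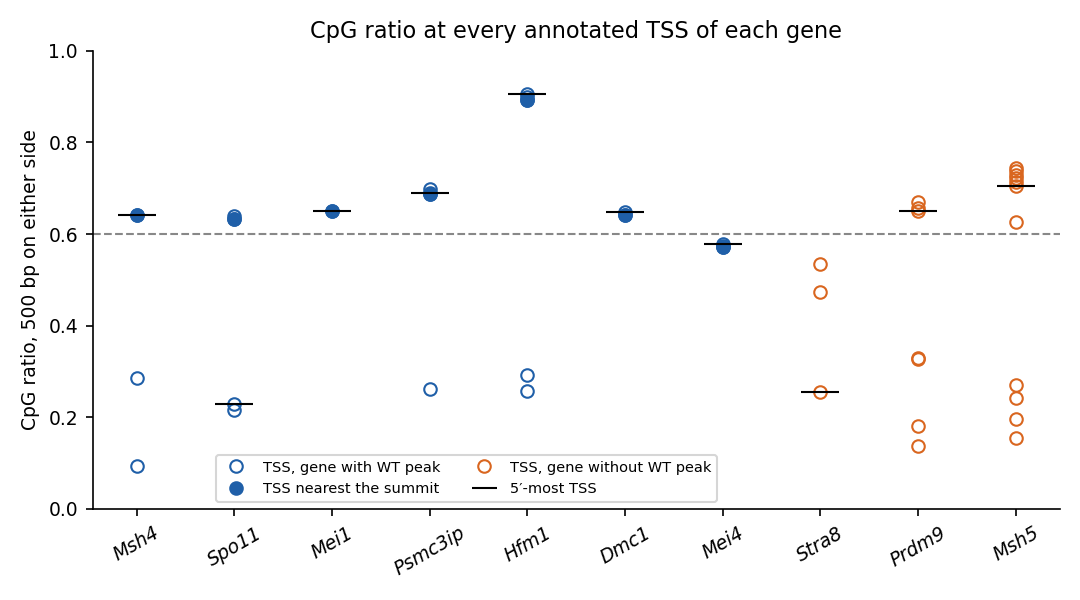
CpG ratio (observed over expected, 500 bp on either side) at every annotated TSS of each gene, blue for genes with a WT peak and orange for genes without; filled circles mark the TSS nearest the summit, black bars the most upstream TSS, and the dashed line the ratio of 0.6. The filled circles lie at 0.572 to 0.892, and Prdm9 and Msh5 have TSSs in that range.

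Among bound members, the order of the scores was not that of the CpG ratios. Hfm1, with the highest ratio, had a score of 98, and the strong peaks of Msh4, Spo11 and Mei1 had ratios of 0.633 to 0.650 at the TSS nearest the summit. Dmc1, at 0.642 there, was within that range and had a score of 84. Within the peak intervals themselves, the CpG ratio ran from 0.602 at Mei4 to 0.878 at Dmc1, beside a median of 0.802 (quartiles 0.673 and 0.904) over all WT peaks.

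Both strands of the 1 kb around the most upstream TSS were searched for CACGTG, the E-box read by MAX and its partners, and for GGCGGGA, a form of the E2F site. Both motifs hold a CpG, CACGTG reads alike on both strands, and neither motif contains the other. For Spo11, the most upstream TSS lies away from the peak, so this window is not its bound site. CACGTG was present at Mei1 and Msh4, 2 of 10 members, beside 17.0% of all protein-coding promoters and 22.4% of CpG-rich ones. GGCGGGA was present at Psmc3ip, Msh4 and Hfm1 among bound members and at Prdm9 and Msh5 among unbound ones, 5 of 10, beside 28.8% of all promoters and 50.5% of CpG-rich ones. Within 200 bp around the summits of the 7 bound members, CACGTG was present at Mei1 and GGCGGGA at Psmc3ip, Msh4 and Hfm1, beside 15.8% and 13.4% of all WT summits. These matches are descriptions of sequence and not of binding by any factor.

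The rest of the pathway was read from lists of genes by role. Of 18 companion meiotic genes with an annotation, 13 were bound, 6 of them at scores of 320 or above, with a median score of 319. Over all protein-coding genes, 24.0% were bound and 2.79% had a peak at or above that score. The strongest companion gene was Gm4969 (score 2460), which is counted as bound although its WT peak overlapped a KO peak and may not be specific to KDM5C. Gm4969 was followed by Zcwpw1 (score 1010, enriched 11.4-fold), a reader of the histone marks that PRDM9 writes. After it came Spata22 (score 859, enriched 15.7-fold), a partner of MEIOB on single-stranded DNA. Iho1, Meiob, Rad51ap2, AI481877 (SHOC1) and Rnf212 were unbound. Of these, Iho1, AI481877 and Rnf212 had CpG ratios of at most 0.175 at every TSS, and Meiob (0.745) and Rad51ap2 (0.619) were in CpG-rich sequence.

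Genes that act in recombination or mismatch repair in dividing cells at large were bound at a like count, 15 of 20. Their median score was 98, and 3 scored 320 or above, beside 2.79% of all protein-coding genes. The bound share was 24.0% of all protein-coding genes and 44.1% of CpG-rich promoters. Rad50 (score 892, enriched 13.3-fold), of the complex that trims broken ends, Blm (score 415, enriched 7.55-fold), a helicase that dissolves intermediates, and Pms2 (score 394, enriched 5.72-fold), of mismatch repair, were the strongest. The Pms2 peak midpoint also lay within 1 kb of a TSS of Aimp2. Rad51c, Brca1, Palb2, Rad54l and Msh3 were unbound. Of these 20 genes 17 had CpG-rich promoters, beside 7 of the 10 members, 8 of the 18 companion meiotic genes and 44.2% of all protein-coding genes.

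Set beside their partners and relatives, the members showed no common order. For the break enzyme, Spo11 (492) and its partner Gm960, which encodes TOPOVIBL, (515) had near-equal scores. Psmc3ip (101) scored below its partner Mnd1 (319). Msh4 (1034) scored far above the mismatch repair gene Msh6 (114), and Msh5 and Msh3 were both without a peak. These scores come from 1 WT list, and no difference between them has a replicate check.

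**Figure D4:**
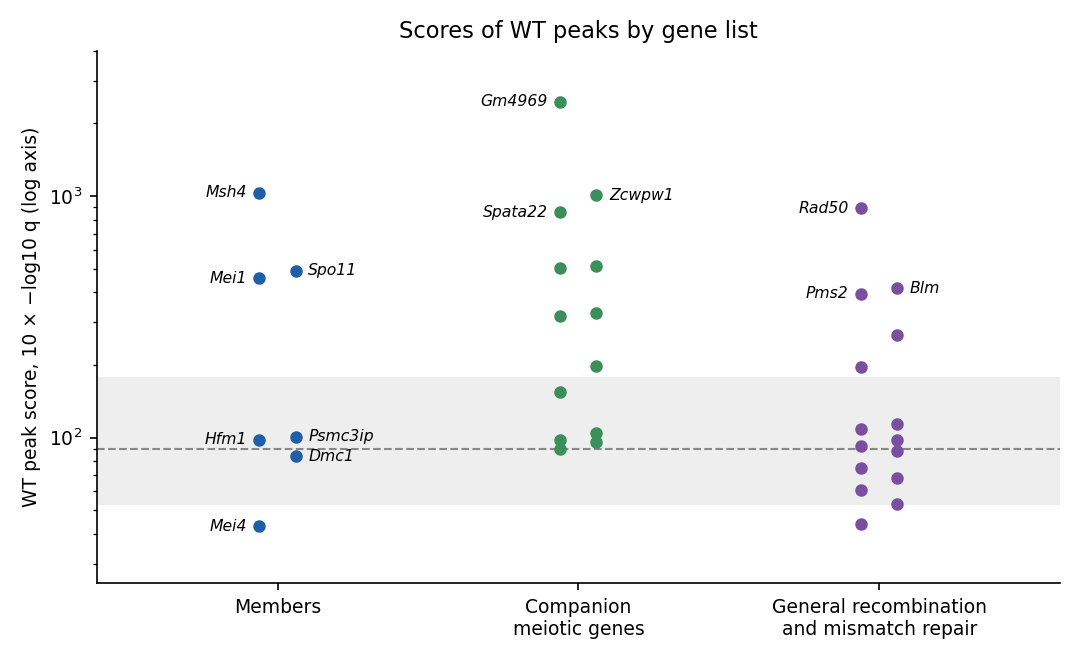
Score of the strongest WT peak (10 × −log10 q, log axis) for each bound member, companion meiotic gene and general recombination or mismatch repair gene; the dashed line and grey band give the median (90) and quartiles (53 and 177) of all bound protein-coding genes. Msh4, Spo11 and Mei1 stand above the band, Mei4 below it, and the names in the other columns are the 3 highest scores of each.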

How the data were processed

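KDM5C ChIP-Seq was analysed from 1 peak list per genotype in day 2 EpiLCs. Per the study's methods and the labels, the authors aligned single-end reads to mm9 with Bowtie (version 1.1.2 in the submitters' processing notes, another in the methods), discarded reads that mapped to several places and ran MACS2 2.1.0.20140616 against input, keeping q-values under 0.1 and enrichment above 1. Unique mapping can lose peaks in repeated sequence. The deposited score is 10 times the −log10 q-value with decimals dropped, as held in all 6916 WT and 44 KO peaks used. The deposited fold enrichment is the value MACS2 gives for immunoprecipitate over input at the summit, not a plain ratio of reads. The authors also deposited −log10 p-values, not used here, and the summit offset. Values were compared within a list only. The study states a minimum read depth for every sample, but the lists hold no read counts, so the precision that depth gives to a peak was not computed.

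Peaks on assembled chromosomes were assigned to GENCODE M1 genes, whose reference sequence (NCBIM37) is mm9. Promoter CpG values, motif matches and sequences were computed with Python 3.11.15, pandas 2.3.3 and pysam 0.24.0, and exact Clopper-Pearson intervals with SciPy 1.17.1. The intervals cover counting error over genes only. Peak assignment and CpG counting were tested on simulated data. Older gene symbols were matched through RefSeq synonyms, and Ankrd31 was not matched. The members and lists were chosen with earlier results of these data known. All members are named, and from each other list the unbound genes and the 3 highest scores, with partners and relatives of members chosen after their values were seen. Alternatives were other windows, TSS choices, score thresholds and CpG limits. Values of some single genes of the general list are not reported here.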

Additional observations from a re-analysis of the deposited data

How the results depend on the processing

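Across 10 results, 48 alternative values were computed, of which 6 were added after the data had been seen. In 10 of them a count or share moved by more than the limit set for it, and in 2 a difference changed sign. Windows of 500 bp and 5 kb, placement by summit and any overlap left 7 members with a WT peak and 0 with a KO peak. With only peaks at the 90th percentile of WT scores or higher, 3 members, 6 companion meiotic genes, 3 general genes and 2.79% of protein-coding promoters were bound, since a threshold removes peaks by construction. At the WT median score 10 of the 15 general genes remained bound. The share of protein-coding promoters was 13.0% at the WT median score, 21.8% within 500 bp, 27.0% within 5 kb and 22.0% with the most upstream TSS only. Members in CpG-rich sequence fell from 7 to 2 with 1 kb on either side of the TSS and to 1 with a ratio of at least 0.75 and GC of at least 55%. The difference in median CpG ratio, bound minus unbound, turned from −0.0034 to 0.0346 with 250 bp on either side and to 0.171 with the median over all TSSs of a gene. It was −0.0695 with 1 kb on either side and −0.0226 at the TSS with the highest ratio. The cause was not tested. No paired analysis was possible because only 1 list exists for each genotype. Without read counts, depth could not be varied.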
